A study of Mus musculus with 38 samples.

Results

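Of the 10819 promoter clusters measured in mouse soleus muscle, 49 were higher in each fasted group, at low or high ambient temperature, than in the groups with food. They were chosen on the mean level of each group of experiment 1, as the clusters in which the lowest of the means of the fasted groups Mid, HiT and Dep was at least 1 TPM (tags scaled to a common library size) and at least 2 times the highest of the means of the groups with food, Pre, Post and Fed. The 49 clusters lay in 38 genes. Of these clusters, 35 had their highest peak within 500 bp of an annotated start of a gene on the same strand, and 14 lay inside a gene. Because these means chose the members, the fasted and fed groups of experiment 1 are compared below as a description without a test, whereas experiment 2 was not used in the choice and is tested.

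Each library came from the soleus of 1 male C57BL/6J mouse, and cap analysis of gene expression (nAnT-iCAGE) counted tags from the capped 5′ ends of RNA. Whether clusters inside a gene mark starts of transcription was not tested. In the Pre group mice had food on day 1, in the Mid group food had been withdrawn and the mice were sampled on day 2, during the time of torpor but not each in a torpid state, and in the Post group food had been returned by day 3. The HiT mice were fasted at a high ambient temperature on day 2, and the Dep mice were fasted and touched so that torpor was prevented. The Fed mice were at low ambient temperature and not fasted. No group had food at high ambient temperature, so fasting and warmth cannot be told apart between the HiT and the groups with food. Experiment 1 held 28 libraries (4 Pre, 8 Mid, 4 Post, 4 HiT, 4 Fed and 4 Dep) and experiment 2 held 10 (2 Pre, 5 Mid and 3 Post). The sample labels tag the Fed mice as starved and the description deposited with the series gives the HiT mice food, whereas the methods of the study say the reverse, and the methods were followed here. *Fasn*, the fatty acid synthase gene and no member, was between 2.81 and 5.40 TPM in the HiT libraries, between 3.08 and 26.5 in the Mid and between 34.9 and 150.1 in the Fed.

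In a fasted animal, insulin falls and glucocorticoids and circulating fatty acids rise. In skeletal muscle, FOXO factors then drive genes of autophagy and protein breakdown, PPAR receptors bound by fatty acids drive genes that burn or handle fat, and pyruvate dehydrogenase kinase keeps pyruvate from being oxidized so that glucose is spared. Metallothioneins, which bind zinc, and heme oxygenase respond to metals, glucocorticoids and oxidative stress.

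The 160 bases before the start are shown for 6 members: *Pdk4*, the highest of all, *Ppargc1a*, which rose most from the HiT to Mid, and 4 members that hold a motif of a factor of the fasting response. Sequences are those of RefSeq (GRCm38.p6), read 5′ to 3′ in the direction of transcription, and end before the annotated start and the peak. Capitals mark AGGTCA, the core site of nuclear receptors such as PPAR, in *Ucp3* and *Slc25a34*, GTAAACA of FOXO in *Tmem140*, and TGACGTCA of CREB in *Maff*, in either direction.
*Pdk4*, chr6:5496312-5496471, - strand: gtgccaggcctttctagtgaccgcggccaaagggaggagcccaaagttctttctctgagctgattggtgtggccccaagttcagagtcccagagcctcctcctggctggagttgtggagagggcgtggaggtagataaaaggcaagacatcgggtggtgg
*Ppargc1a*, chr5:51567728-51567887, - strand: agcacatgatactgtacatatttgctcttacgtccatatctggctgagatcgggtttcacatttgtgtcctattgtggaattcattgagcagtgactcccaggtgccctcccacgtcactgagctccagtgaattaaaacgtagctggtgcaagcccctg
*Ucp3*, chr7:100472807-100472966, + strand: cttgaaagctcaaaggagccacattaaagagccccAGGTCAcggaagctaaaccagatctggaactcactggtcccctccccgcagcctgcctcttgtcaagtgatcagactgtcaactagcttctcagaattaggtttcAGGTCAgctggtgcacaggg
*Slc25a34*, chr4:141623835-141623994, - strand: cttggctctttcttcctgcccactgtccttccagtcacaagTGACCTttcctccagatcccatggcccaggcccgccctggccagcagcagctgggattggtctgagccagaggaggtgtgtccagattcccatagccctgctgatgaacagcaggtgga
*Tmem140*, chr6:34862986-34863145, + strand: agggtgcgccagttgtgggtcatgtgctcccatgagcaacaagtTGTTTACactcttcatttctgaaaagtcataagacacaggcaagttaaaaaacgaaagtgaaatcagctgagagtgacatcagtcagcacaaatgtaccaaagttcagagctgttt
*Maff*, chr15:79347360-79347519, + strand: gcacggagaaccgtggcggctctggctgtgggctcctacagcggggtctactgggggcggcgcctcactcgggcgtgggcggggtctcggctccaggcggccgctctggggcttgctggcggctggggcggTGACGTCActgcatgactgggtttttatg
The matches began 125 and 20 bases before the peak in *Ucp3*, 145 in *Slc25a34*, 140 in *Tmem140* and 49 in *Maff*. A RefSeq window of 250 bases before to 50 bases after a start held the peak of 14 of the 35 members at annotated starts, and of 4766 clusters in all. AGGTCA on either strand was in 3 of the 14 windows (21.4%) and in 11.6% of all windows, GTAAACA in 1 (7.14%) and 2.52%, TGACGTCA in 1 (7.14%) and 3.82%, and AGAACA, the core site of steroid receptors, in 1 (7.14%) and 10.7%. The E box CACGTG was in 2 (14.3%) and 10.8%, and TGCGCNC, the core of the metal response element, in 2 (14.3%) and 30.8%. No member window held TATAAA (7.85% of all windows), TGATGNAA of the ATF4 type (1.87%), a direct repeat of AGGTCA 1 base apart (0.0629%) or a palindrome of AGAACA with 3 bases between its arms (0% of all windows). With 14 windows, 1 match makes 7.14%, so these shares describe the windows and no more.

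The libraries had between 18257657 and 39176649 tags in clusters in experiment 1 and between 9359994 and 20914855 in experiment 2. Slow muscle genes summed to between 5784 and 15257 TPM in experiment 1, lowest in a HiT library, and to between 16622 and 25928 TPM in experiment 2. Fast muscle genes summed to between 1557 and 6085 TPM in experiment 1 and to between 1016 and 1320 TPM in experiment 2. The experiments overlapped in neither sum, and the source of this difference was not tested. The summed macrophage markers (8 of 9 measured) were between 156 and 460.3 TPM in the HiT libraries and between 40.3 and 110.2 TPM in all others. The neutrophil markers (4 of 7 measured) reached 117 TPM in Dep 1 and at most 7.92 TPM elsewhere, and the adipocyte markers (7 of 8 measured) lay between 163 and 1982 TPM, highest in Dep 3. The markers of endothelium lay between 134 and 279.7 TPM, of red cells between 1129 and 12639, of tendon between 361 and 1054 and of Schwann cells between 78.8 and 932.5. In whole muscle, a change in the share of a cell type and a change of RNA per cell cannot be told apart.

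Members at annotated starts tended to be high or low together within a mouse. The summed level of the 49 clusters was between 1174 and 2247 TPM in the 12 fed libraries of experiment 1 and between 3308 and 13243 TPM in the 16 fasted ones. Mid 6 gave the lowest of these fasted sums, and it was the lowest of the 8 Mid libraries at all 35 members at annotated starts. In HiT, HiT 4 was the lowest at 27 of the 35 and HiT 1 the highest at 27. In Dep, Dep 3 was the highest at 26. Internal members did not all follow. HiT 4 was the highest HiT library at 9 of the 49 members, of which 1 was at an annotated start. Among them was an internal cluster of *Pdk4* (peak chr6:5491999), at 4.69, 4.50, 6.29 and 8.42 TPM in HiT 1 to HiT 4. The reason was not tested. For 30 of the 49 members every fasted library was above every fed one, which held for 0.316% of all clusters, a count that the rule itself favors. Ratios of the lowest fasted to the highest fed mean ranged from 20.5 for *Mt2* to 2.03 for *Xirp1*. Just inside the limit were *Maff* (2.10), *Zim1* (2.09), *Rnd1* (2.06), *Il6ra* (2.04) and *Xirp1* (2.03), and just outside *Ddit4* (1.97), *Casz1* (1.97), the main promoter of *Tnfrsf12a* (1.96), *Spsb1* (1.94) and *Polr3d* (1.93).

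**Figure D1:**
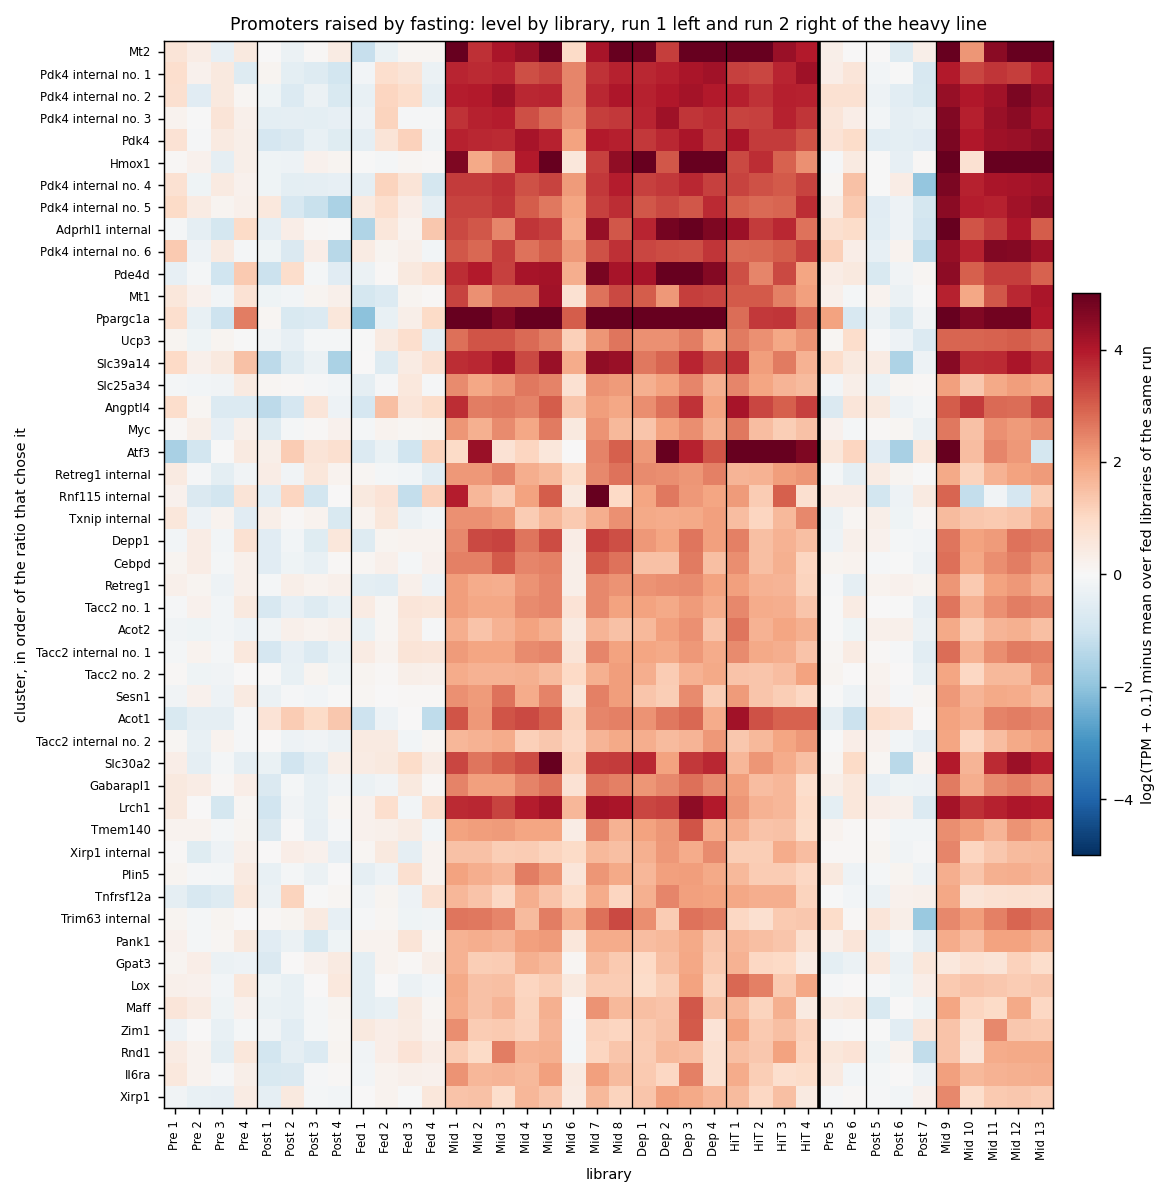
Level of 48 of the clusters (rows, in order of the ratio that chose them) in the 38 libraries (columns), as log2(TPM + 0.1) minus the mean over the fed libraries of the same experiment. Internal clusters of a gene are numbered in the order of their ratio. The column of Mid 6 is paler than the other 7 Mid columns, and *Atf3* is darkest in HiT within experiment 1.

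In experiment 2, which took no part in the choice, 44 of the 49 members were up-regulated from the Pre to Mid at an FDR (Benjamini-Hochberg adjusted p of the edgeR quasi-likelihood test) below 0.05, and none was down-regulated, against 5.3% of all clusters up-regulated and 4.44% down-regulated. From the Post to Mid, 46 were higher and none lower, against 8.65% and 7.73% of all clusters. All 49 fold changes were positive in both comparisons, with a median log2 fold change of 2.23 against the Pre and 2.55 against the Post, while the median over all clusters was 0.00 and 0.01. Every Mid library was above every Pre and Post library at 45 of the 49 members, and at 5.95% of all clusters. Across the 49 members, fold changes between the Pre and Mid had a Spearman's rho of 0.84 between the experiments, as a description, since members of 1 gene share RNA and the rule used experiment 1. With either Pre library left out, 31 members passed from the Pre to Mid, and with the Pre and Mid libraries of lane 3 alone (2 and 4), 38 did. The plot of fold changes in experiment 2 gives each member.

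**Figure D2:**
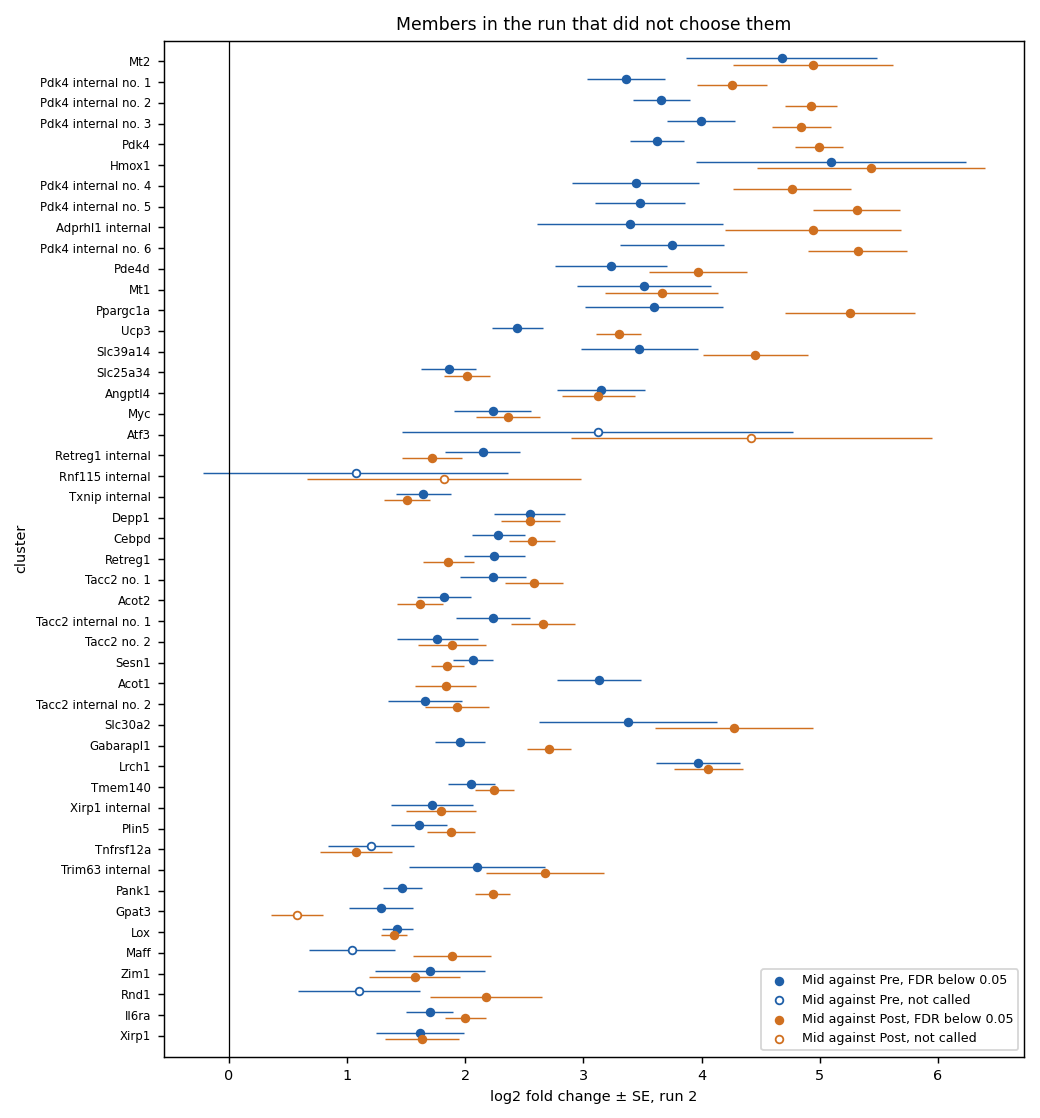
Log2 fold change of each member in experiment 2 (dots, bars are SE) from the Pre to Mid (blue) and from the Post to Mid (orange). Open dots did not pass an FDR of 0.05, and all dots of the 48 clusters drawn lie to the right of 0.

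*Pdk4*, which encodes the pyruvate dehydrogenase kinase of fasting, had the highest level of the members. Its main cluster (chr6:5495772-5496712, minus strand, mm10, peak before the annotated start) was between 1361 and 5885 TPM (median 4889) in the Mid of experiment 1, 5706, 3830.4, 3812 and 2979 TPM in the HiT, 3876, 4659, 5687 and 4047 in the Dep, 554, 325, 459 and 409.6 in the Pre, 188, 203, 259 and 224 in the Post and 251, 535, 752 and 298 in the Fed libraries. No fasted library overlapped a fed one. In experiment 2 it was 3520.0, 2143, 2535, 2699.8 and 2942 TPM in the Mid, 218 and 253 in the Pre and 91.8, 95.5 and 89.4 in the Post, a rise over the Pre of 3.62 ± 0.23 on the log2 scale (± SE) with an FDR of 4.65e-05.

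Other members at annotated starts encode proteins of fat handling, mitochondrial carriers and an enzyme of coenzyme A synthesis. *Ucp3*, a mitochondrial carrier of the uncoupling protein family, was between 26.9 and 105 TPM (median 78.7) in the Mid of experiment 1, 73.2, 57.9, 46.1 and 57.1 TPM in the HiT and between 8.62 and 21.1 TPM over the fed libraries, without overlap. In experiment 2 *Ucp3* was 45.0, 45.2, 46.6, 49.3 and 43.0 TPM in the Mid, a narrow range, and 6.40 and 11.2 in the Pre, with a log2 fold change of 2.44 ± 0.21 and an FDR of 0.000187. *Angptl4*, a secreted inhibitor of lipoprotein lipase, was 123, 71.5, 55.9 and 76.3 TPM in the HiT, 35.1, 48.2, 87.2 and 28.2 in the Dep, between 18.5 and 91.3 TPM (median 40.6) in the Mid and 3.86, 19.8, 10.7 and 13.2 in the Fed, so that 1 Fed library lay above the lowest Mid library. It was up-regulated from the Pre to Mid in experiment 2 by 3.15 ± 0.37 (FDR 0.00107). *Acot2* and *Acot1*, neighboring genes of mitochondrial and cytosolic acyl-CoA thioesterases, rose by 1.82 ± 0.23 (FDR 0.00153) and 3.13 ± 0.35 (FDR 0.000939), and tags of such close paralogs can be assigned to the wrong copy. *Plin5*, which coats lipid droplets, rose by 1.61 and *Gpat3*, which starts glycerolipid synthesis, by 1.28, a call lost without Pre 6 (FDR 0.101). *Gpat3* was the smallest change from the Post to Mid (0.58 ± 0.22, FDR 0.101), and its Mid libraries (7.52, 8.77, 8.13, 11.5 and 9.48 TPM) overlapped its Post libraries (7.37, 4.14 and 7.69 TPM). *Pank1*, a pantothenate kinase of coenzyme A synthesis, rose by 1.47, and *Slc25a34*, a mitochondrial carrier, by 1.86.

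*Mt1*, *Mt2* and *Hmox1* varied widely among the Mid mice. *Mt2* (chr8:94172448-94173186, plus strand, 5′ UTR), a metallothionein, was between 31.9 and 1192 TPM (median 306) in the Mid of experiment 1, 561, 523, 328 and 253 TPM in the HiT, 474, 177, 585 and 588 in the Dep and between 7.20 and 25 TPM over the fed libraries. The low end of the Mid was Mid 6, still above all fed libraries. In experiment 2 the Mid libraries were at 2382, 322, 1564, 2201 and 2952 TPM, the Pre at 85.3 and 70.2 and the Post at 70.1, 44.2 and 83.7, a rise of 4.68 ± 0.81 on the log2 scale over the Pre (FDR 0.00628). Its neighbor *Mt1* rose by 3.51 ± 0.57 (FDR 0.0047, and 0.0508 without Pre 5), and the same library, Mid 10, was the lowest Mid library for both. *Hmox1*, heme oxygenase 1, was 355, 13.2, 248, 391 and 433 TPM in the Mid of experiment 2 against 7.29 and 10.6 in the Pre, where Mid 10 again stood close to the fed level, and its log2 fold change was 5.09 ± 1.15 (FDR 0.0207, and 0.0682 within lane 3). In experiment 1 *Hmox1* was between 8.39 and 633 TPM (median 75.6) in the Mid, 55.6, 73.0, 44.3 and 27.5 in the HiT and 204, 49.7, 191 and 287 in the Dep, and between 4.07 and 6.84 TPM over the fed libraries. The zinc importer gene *Slc39a14* rose by 3.47 ± 0.50 (FDR 0.00272) and the zinc exporter gene *Slc30a2* by 3.38 ± 0.76 (FDR 0.0201), both from fed levels of at most 1.28 TPM. The call of *Slc30a2* was lost without Pre 5 (FDR 0.162), without Pre 6 (0.106) and within lane 3 (0.0606).

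*Gabarapl1*, an ATG8 family protein of autophagosomes, was 346, 203, 292, 331 and 276 TPM in the Mid of experiment 2, 70.2 and 85.7 in the Pre and 43.4, 48.8 and 48.7 in the Post, and rose by 1.96 ± 0.21 from the Pre to Mid (FDR 0.000803). The start of *Retreg1*, a receptor for autophagy of the endoplasmic reticulum, rose by 2.25 ± 0.26 (FDR 0.000994). *Sesn1*, a sestrin that restrains mTORC1, was 62.8, 45.6, 52.1, 49.8 and 43.0 TPM in the Mid and 13.6 and 11.4 in the Pre, a rise of 2.07 ± 0.17 (FDR 0.00016). *Depp1*, a FOXO target linked to autophagy, rose by 2.55 ± 0.30 (FDR 0.00105). In experiment 1, *Depp1* was between 7.10 and 60.6 TPM (median 52.7) in the Mid, and Mid 6 lay within the fed range of 3.50 to 9.29 TPM.

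*Cebpd*, a C/EBP factor induced by glucocorticoids, was 200.4, 114, 151, 176 and 137 TPM in the Mid of experiment 2 and 33.2 and 33.5 in the Pre, and rose by 2.28 ± 0.23 (FDR 0.0004). *Myc* rose by 2.23 (FDR 0.00282). *Il6ra*, the alpha chain of the interleukin 6 receptor, rose by 1.70, *Tmem140*, a membrane protein gene, by 2.05 and *Zim1*, an imprinted zinc finger gene, by 1.70, each with an FDR under 0.05. The call of *Zim1* was lost without TMM (FDR 0.0578), with lane as a term (0.0656) and within lane 3 (0.0781). *Xirp1*, an actin-binding protein of the myotendinous junction and of injured muscle, was among the highest members, at 2618, 911, 1224, 1256 and 1199 TPM in the Mid and 474 and 509 in the Pre (1.62 ± 0.37, FDR 0.0223, and 0.0645 within lane 3). *Tacc2*, a centrosome and microtubule protein gene with 4 members, rose by 2.23 at its strongest annotated start. *Lox*, the enzyme that crosslinks collagen, was between 75.5 and 84.5 TPM in the Mid of experiment 2 and between 26.6 and 38.9 TPM in the Pre and Post, a rise of 1.43 ± 0.13 over the Pre (FDR 0.00022).

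From the Pre to Mid of experiment 2, 5 members were not called, and each had a positive fold change. *Maff*, a small MAF factor, was 11.4, 6.06, 5.63, 10.9 and 5.89 TPM in the Mid and 3.91 and 4.11 in the Pre (1.04 ± 0.37, FDR 0.105). *Rnd1*, a small GTPase gene, was 2.03, 1.1, 2.71, 2.82 and 2.85 and 1.07 and 1.16 TPM (1.1 ± 0.52, FDR 0.222), and *Tnfrsf12a*, the TWEAK receptor gene, 76.4, 31.5, 34.2, 35.0 and 33.9 and 19.7 and 18.3 (1.2 ± 0.36, FDR 0.0613). These 3 passed from the Post to Mid, with FDRs of 0.00326, 0.0106 and 0.0353, although *Maff* (0.0934) and *Tnfrsf12a* (0.341) did not with lane as a term. *Atf3*, a stress-induced factor, was 33.9, 1.67, 3.21, 2.62 and 0.23 TPM in the Mid, where Mid 9 stood far above the others and Mid 13 was below both Pre libraries (0.8 and 1.16), so that its log2 fold change of 3.12 had an SE of 1.65 and an FDR of 0.275. The cluster in an intron of *Rnf115*, a ubiquitin ligase gene, was 2.60, 0.0577, 0.214, 0.101 and 0.736 TPM in the Mid and 0.356 and 0.358 in the Pre (FDR 0.664), and without Mid 9 its log2 fold change was -0.17.

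Among fasted mice of experiment 1, the rule did not fix which group was higher. It did leave out clusters in which any 1 fasted mean was low. Shares over all clusters, which passed no such rule, are therefore not a like background for the counts of members below. From the HiT to Mid, 11 members were up-regulated and 6 down-regulated, against 19.2% and 21.8% of all clusters, so that 32 members did not pass. The median log2 fold change over the members was 0.05 and over all clusters 0.02. *Ppargc1a*, the coactivator PGC-1α of mitochondrial biogenesis, was the largest increase. Its member start was between 25.9 and 351 TPM (median 187) in the Mid, 156, 156, 246 and 196 TPM in the Dep and 22.3, 37.0, 38.4 and 22.5 in the HiT, while the Pre were at 5.60, 2.36, 1.47 and 19 and the Fed at 0.669, 2.37, 3.81 and 6.06. The HiT libraries lay between the fed and the other fasted libraries, except that Mid 6, at 25.9 TPM, lay within their range. The log2 fold change from the HiT to Mid was 2.46 ± 0.57 (FDR 0.00129).

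*Lrch1*, a gene of a leucine-rich repeat protein, followed the same order. It was between 4.40 and 25.5 TPM (median 20.5) in the Mid, 14.3, 15.1, 31.6 and 22.1 TPM in the Dep, 6.37, 4.57, 4.32 and 2.71 in the HiT and between 0.63 and 2.43 TPM in the fed libraries, and rose from the HiT to Mid by 2.00 ± 0.31 (FDR 1.40e-05). *Slc30a2* (1.54), the internal cluster of *Trim63* (1.30), *Slc39a14* (1.16), *Depp1* (1.00), *Pde4d* (0.98), *Cebpd* (0.72), *Gabarapl1* (0.61), *Sesn1* (0.61) and *Plin5* (0.50) were also higher in the Mid. Of these, *Pde4d* encodes a phosphodiesterase that breaks down cyclic AMP and *Trim63* the ubiquitin ligase MuRF1 of muscle atrophy. Leaving out Mid 6 raised the count to 16, leaving out Mid 7 lowered it to 7 and leaving out HiT 2 to 5.

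The 6 members lower in the Mid than in the HiT included the thioesterases, *Atf3*, *Angptl4* and *Lox*. *Atf3* was 27, 17.7, 30.9 and 10.1 TPM in the HiT and between 0.314 and 8.08 TPM (median 0.722) in the Mid (-3.47 ± 0.62, FDR 7.88e-05). In the Dep it was 1.73, 16.9, 5.74 and 3.51, where Dep 2 overlapped the HiT. Over the fed libraries of experiment 1 it was between 0.0322 and 0.887 TPM, a range that holds the Mid median. Without Mid 2, or with group medians in place of means, the rule did not choose *Atf3*. At the other annotated start of *Atf3* (peak chr1:191183256), no member, the HiT had the lowest mean of the fasted groups instead of the highest. This start was at 16.5 ± 6.12 TPM in the Mid (SD, n = 8), 28 ± 7.98 in the Dep and 9.03 ± 3.72 in the HiT (n = 4 each). The Dep mean was above the Mid mean at both starts. Also lower in the Mid than in the HiT were *Angptl4* (-1.03 ± 0.37), *Lox* (-1.02 ± 0.20), *Acot1* (-0.80 ± 0.24) and *Acot2* (-0.62 ± 0.15). The macrophage markers were also higher in every HiT library, as given above, and their part in these differences was not tested. Without HiT 1, which had the highest macrophage sum, 5 members were lower and 9 higher in the Mid.

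*Pdk4* (0.05 ± 0.25, FDR 0.898), *Mt2* (-0.07 ± 0.46, FDR 0.915), *Mt1* (0.22 ± 0.32, FDR 0.613), *Ucp3* (0.23 ± 0.23, FDR 0.442) and *Slc25a34* (0.09 ± 0.18, FDR 0.715) were among those that did not pass from the HiT to Mid. That they were not called does not show equal levels. Their SEs, derived from the F statistic, are rough for fold changes near 0 and were widest for *Mt2*.

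From the Mid to Dep, members were called at about the share of all clusters. Of the 49, 1 was higher and none lower, against 1.16% and 0.872% of all clusters. At an unadjusted p under 0.05 the counts were 10 and 3, with no share over all clusters taken at that threshold. The member called was the cluster in an intron of *Adprhl1*, the gene of an ADP-ribosylhydrolase-like protein of striated muscle (chr8:13227825-13227998, minus strand), which was 12.1, 23.6, 34.1 and 21.8 TPM in the Dep and between 3.01 and 17.7 TPM (median 7.97) in the Mid, so that Dep 1 overlapped the Mid (1.54 ± 0.32, FDR 0.0163). Without Dep 2 or without Dep 4 no member was called higher, without Mid 2, Mid 7 or Dep 3 there were 2, and without Mid 6 there were 3 called lower. From the HiT to Dep, 10 members were higher and 3 lower, against 11.3% and 15.3% of all clusters. *Ppargc1a* (2.61 ± 0.62), *Lrch1* (2.22 ± 0.34) and *Pde4d* (1.93 ± 0.43) led the increases and *Acot1* (-0.97 ± 0.29) and *Lox* (-0.88 ± 0.23) were among the decreases. Without HiT 2 or without Dep 4, 6 were higher. The neutrophil markers stood out in Dep 1 and the adipocyte markers were highest in Dep 3, and their part in these differences was not tested. The counts of the comparisons with the HiT share those 4 libraries, and those with the Mid share the 8.

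**Figure D3:**
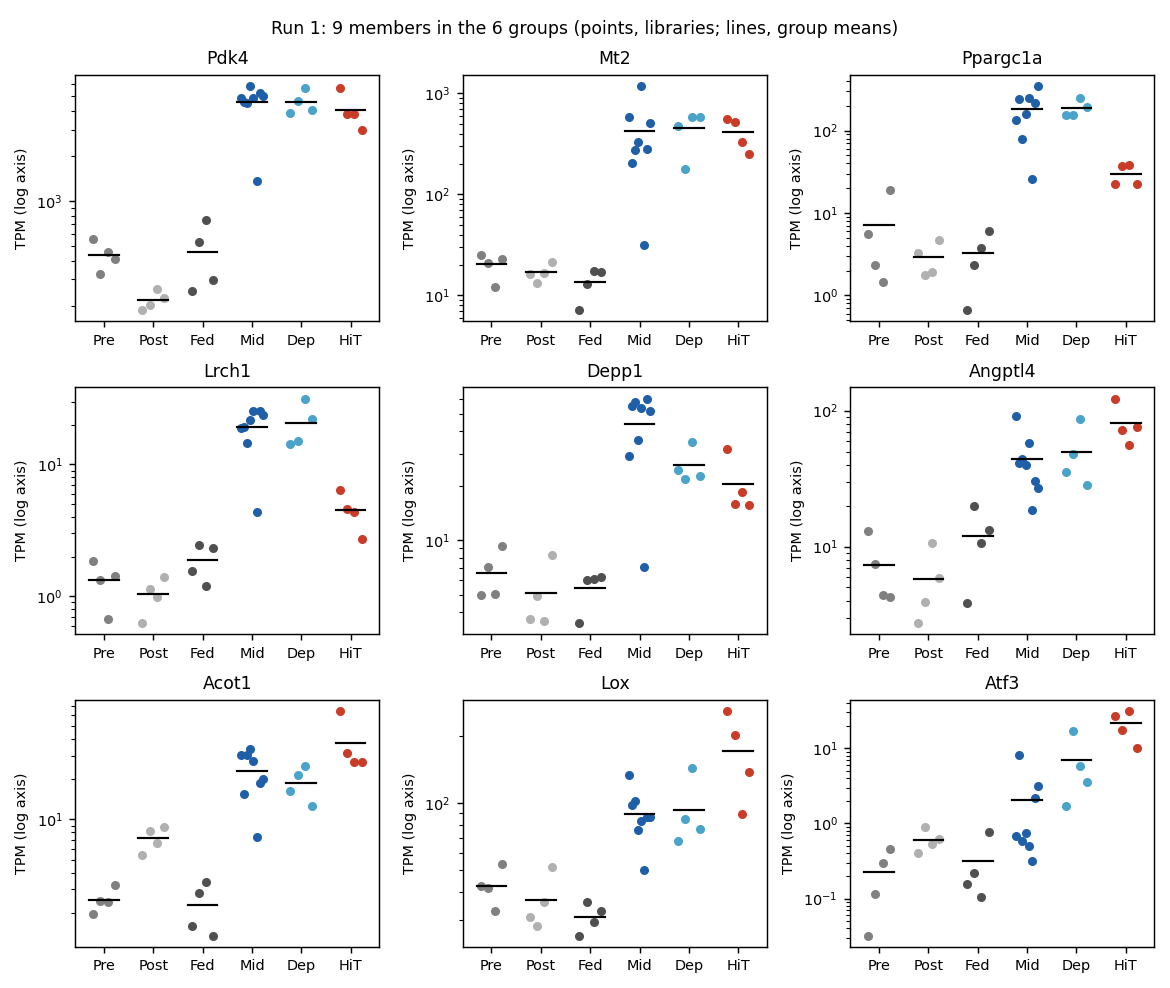
TPM of 9 members (log axes) in the 28 libraries of experiment 1, with 1 point per library and a line at the group mean. The HiT points of *Ppargc1a* and *Lrch1* lie between the fed groups and most Mid and Dep points, whereas those of *Atf3* lie above all Mid points.

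No member passed between the Fed and Pre by edgeR's quasi-likelihood test (0 higher and 0 lower also at an unadjusted p under 0.05, and 0 by DESeq2), against 5.88% of all clusters higher and 5.32% lower in the Fed. The rule capped the highest fed mean of experiment 1, so shares over all clusters are not a like background for the fed groups of that experiment either. From the Pre to Post of experiment 1, 1 member was higher and 1 lower, against 1.05% and 0.798% of all clusters. The member that rose was *Acot1*, at 5.44, 8.24, 6.62 and 8.76 TPM in the Post, 1.96, 2.44, 2.41 and 3.23 in the Pre and 1.59, 2.81, 3.39 and 1.35 in the Fed, without overlap (1.59 ± 0.32, FDR 0.00925). In experiment 2 *Acot1* was 5.94, 5.32 and 3.34 in the Post and 2.40 and 1.52 in the Pre, again without overlap, and the change there was 1.30 ± 0.37 with an FDR of 0.229. The member that fell was *Slc39a14*, at 0.0996, 0.222, 0.306 and 0.0682 TPM in the Post and 0.901, 0.495, 0.603 and 1.28 in the Pre (-2.17 ± 0.56, FDR 0.0419), a call that was lost without any 1 of Pre 1, Pre 3, Pre 4, Post 1, Post 2 or Post 4.

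Refed mice had less *Pdk4* than mice before fasting in both experiments, with a call that depended on single libraries. In experiment 2 it was the 1 member down-regulated from the Pre to Post (-1.37 ± 0.20, FDR 0.0354), where 0.0832% of all clusters fell, and no member rose, where 0.0277% did. At an unadjusted p under 0.05, 2 were higher and 10 lower, with no share over all clusters taken at that threshold. DESeq2 called 1 member higher and 5 lower, against 76 and 99 of 10816 clusters. With any 1 of the Pre or Post libraries left out, no member was called lower. Both Pre libraries of experiment 2 were in lane 3 and all 3 Post libraries in lane 4, so that only Mid 13, in lane 4, tied the lanes together, and with lane as a term 0 members were called lower. In experiment 1 all 4 Post libraries of *Pdk4* were below all 4 Pre libraries (-0.95 ± 0.29, FDR 0.0974), and from the Fed to Post it fell by 0.96 ± 0.29 on the log2 scale (FDR 0.0189). Together 4 members were lower in the Post than in the Fed, against 11.5% of all clusters, and 1 higher, against 10.7%. These were *Pdk4*, *Pank1* (-0.65) and the adjacent clusters of *Tacc2* (-0.89 and -0.93), and *Acot1* was the one that was higher (1.75), with 2 higher when Fed 3 was left out. The log2 fold change from the Pre to Post was negative for 33 of the 49 members in experiment 1 and for 38 in experiment 2. It was positive for 32.7% and 22.4% of the members and for 48.4% and 50.2% of all clusters. Clusters of 1 gene were counted separately, 7 of them in *Pdk4* and 4 in *Tacc2*, and are not independent.

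In 9 genes, a second cluster at an annotated start was no member, which allowed the 2 starts to be compared within each library of experiment 2. These pairs were chosen after the levels had been seen, and the second start was the one with the highest mean in experiment 1. The member met the rule in experiment 1 and the second start did not, which itself favored a higher ratio in the Mid. The p values below do not allow for that choice. For *Ppargc1a* the member lies 13853 bp upstream of the other start, and it was 137, 88.2, 100.3, 100.4 and 57.4 TPM in the Mid, 14.4 and 1.97 in the Pre and 2.81, 1.97 and 3.03 in the Post, whereas the other start was 22.6 ± 7.47 TPM (SD, n = 5) in the Mid and 23.6 ± 4.07 (n = 5) in the Pre and Post together. The member's share of the mean of both was 17% in the fed mice and 81.0% in the Mid. The log2 ratio of the member to the other start rose by 4.81, with no overlap between the 5 Mid and 5 fed libraries (two-sided exact permutation test over 252 divisions, p = 0.00794, their lowest possible value, adjusted over the 9 pairs 0.0143).

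The member starts of *Ppargc1a*, *Pde4d* and *Lrch1* themselves rose from the Pre to Mid of experiment 2 by 3.60 ± 0.58, 3.23 ± 0.47 and 3.97 ± 0.36 (FDR 0.00471, 0.00287 and 0.000219). In *Lrch1* the share rose from 6.99 to 49.3% with the starts 47954 bp apart, in *Slc39a14* from 5.26 to 40.9% (19940 bp), and in *Pde4d* from 32.8 to 79.8% (21695 bp). For *Retreg1* the member already made 94.5% in the fed mice and 98.0% in the Mid. Each of these 4 pairs had the same p as *Ppargc1a* and no overlap. For *Slc30a2* the share rose from 21.9 to 67.0%, with overlap, since Mid 10 was low (exact permutation p = 0.0159, adjusted 0.0238). In *Plin5*, *Tnfrsf12a* and *Atf3* the ratio did not pass the test (exact permutation p = 0.302, 0.429 and 0.579), with a change of the log2 ratio of 0.23, -0.13 and 0.61. The other start of *Plin5* was 14.6 ± 2.82 TPM in the fed libraries and 41.3 ± 9.86 in the Mid, and that of *Tnfrsf12a* 131 ± 24.5 and 292 ± 116. For *Atf3*, the other start was 13.6 ± 8.49 in the fed libraries and 39.0 ± 15.9 in the Mid. Pre 5, at 28.4 TPM, lay above Mid 10 (25.9) and Mid 11 (27.5). From the Pre to Mid by edgeR, the other starts of *Atf3* (FDR 0.185) and *Tnfrsf12a* (0.0784) were not called, and that of *Plin5* was (0.00872).

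**Figure D4:**
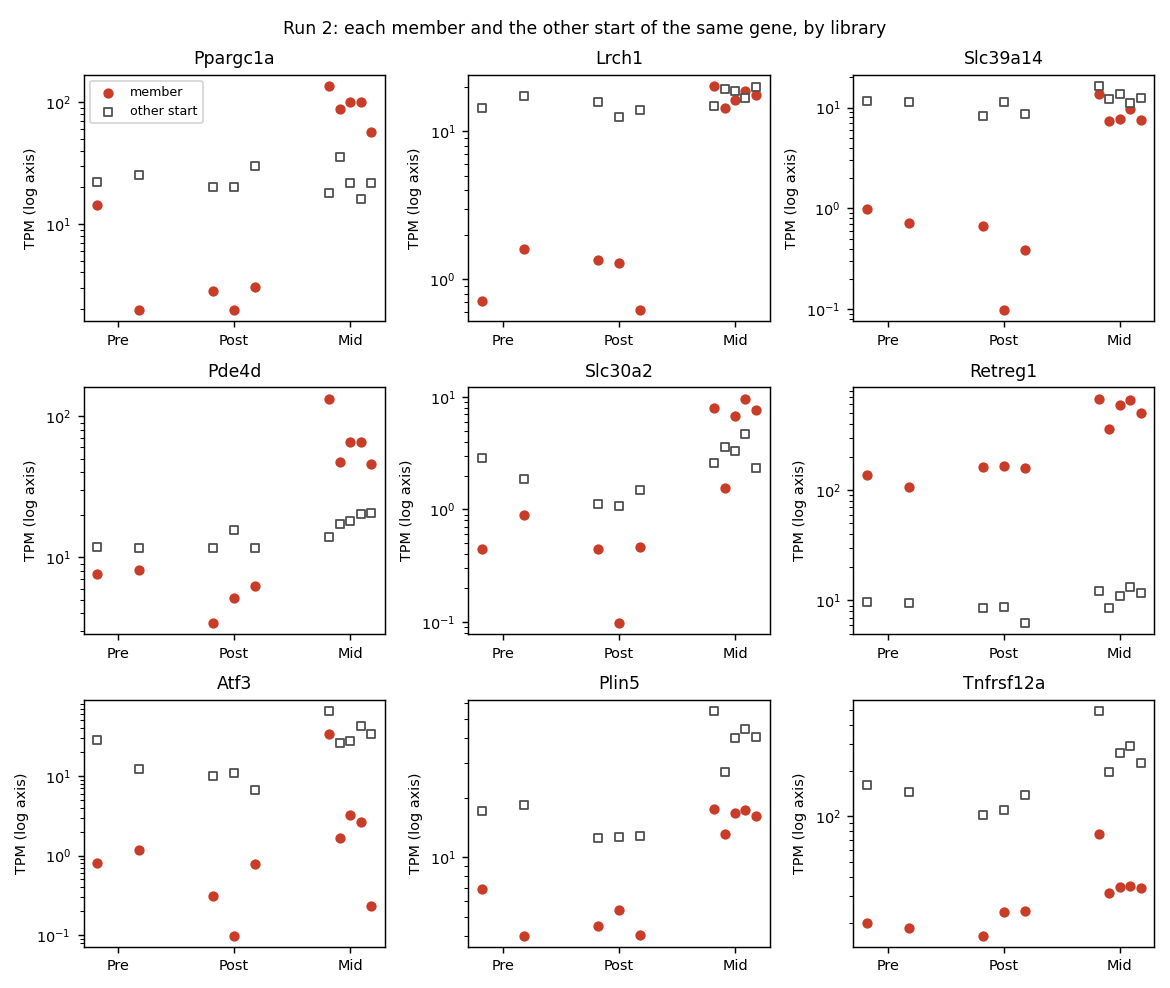
TPM (log axes) of the member (red dots) and of the other annotated start of the same gene (open squares) in each library of experiment 2. In *Ppargc1a*, *Lrch1*, *Slc39a14*, *Pde4d* and *Retreg1* the distance between dots and squares differs between the Mid and the fed libraries without overlap, and in *Plin5* and *Tnfrsf12a* dots and squares are higher together.

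The 14 internal members lay in coding exons, 3′ UTRs and introns of 8 genes. *Pdk4* alone held 6, in coding exons 2, 3, 4 and 6 and in the 3′ UTR of exon 11. Tags at the strongest of these (peak chr6:5484165) were 2.92% of the tags at the start of *Pdk4* over the fasted libraries of experiment 1 and 2.62% over the fed ones, and 3.94% and 4.02% in experiment 2. Over the other 5 this percentage lay between 0.0616 and 0.262 in the fasted and between 0.0636 and 0.256 in the fed libraries of experiment 1. These 6 clusters lie in the same gene as the start and are not independent of it. The 3′ UTR clusters of *Retreg1* (2.80% in the fasted and 2.49% in the fed libraries of experiment 1) and *Xirp1* (4.19 and 3.63%) lay below starts that were members as well.

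In *Txnip*, which inhibits glucose uptake, and *Trim63*, the internal cluster was a member and the start was not, with ratios of 1.54 and 1.5. The start of *Trim63* was 788 TPM on average in the Mid, 623 in the Dep and 272 in the HiT, and between 128 and 182 in the fed groups, so that the HiT mean kept it outside. Its internal cluster was 1.07% of the start in the fasted and 0.844% in the fed libraries, and that of *Txnip* 4.57 and 3.09%. The *Adprhl1* cluster was 4.54% of the level of the annotated start in the fasted and 0.351% in the fed libraries of experiment 1, and 9.06% and 0.595% in experiment 2, while the start was between 217 and 316 TPM on average in all 6 groups.

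In *Tacc2*, the annotated start (peak chr7:130596309) and a cluster upstream of it (peak chr7:130593252) had almost equal tags, with percentages of 98.1 to 106 over the 28 libraries of experiment 1. Whether the same tags were placed at both was not tested. The 2 further members of *Tacc2*, in coding exons, rose by 1.76 and 1.66 from the Pre to Mid of experiment 2.

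Other genes of the same pathways were counted from lists of related genes. Counting clusters that were no members, from the Pre to Mid of experiment 2, where 5.3% of all clusters rose and 4.44% fell, 16 of 30 of the list of FOXO targets and atrophy genes rose and 1 fell (median log2 fold change 0.74), 12 of 39 of PPAR targets and fat oxidation rose and 1 fell (0.31), and 14 of 25 of the glucocorticoid targets rose and 1 fell (0.82). Beyond the members, *Trim63* (2.54) and *Fbxo32* (1.46), the ubiquitin ligases of atrophy, *Ddit4* (3.08), an inhibitor of mTORC1, *Cdkn1a* (2.31), the p21 gene, and *Arrdc2* (2.39), an arrestin domain gene, rose. *Ddit4* lay just outside the limit of the rule. The insulin and IGF list had 5 of 31 higher and 3 lower (-0.01), the ATF4 list 7 of 21 higher and 2 lower (0.58), the list of ketone bodies and amino acid breakdown 2 of 22 higher and 0 lower (0.12) and the clock list 5 of 19 higher and 1 lower (0.23). Of the fatty acid synthesis list, 0 of 18 rose and 8 fell (-0.84). The genes with a member on these lists were 16 of the 38 genes, and the other 22 genes, among them *Hmox1*, *Xirp1*, *Tacc2*, *Lrch1* and *Pde4d*, were on none.

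From the HiT to Mid, 16 of 30 other FOXO and atrophy clusters and 19 of 25 other glucocorticoid targets were higher in the Mid and 1 of each lower, against 19.2% of all clusters higher. The PPAR list had 18 of 39 higher and 1 lower. The list of ketone bodies and amino acid breakdown had 11 of 22 higher and 0 lower, and the clock list 8 of 19 and 2. The ATF4 list had 8 of 21 higher and 4 lower, the insulin and IGF list 9 of 31 and 5, and fatty acid synthesis 5 of 18 and 0. Of all clusters, 21.8% were lower. Among the members, the PPAR list split, with *Ppargc1a* and *Plin5* higher in the Mid, *Angptl4*, *Acot1* and *Acot2* lower, and *Pdk4* and *Ucp3* not called.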

How the data were processed

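Soleus RNA of 38 mice was profiled by nAnT-iCAGE. The authors mapped the reads to the mouse genome (GRCm38/mm10, with BWA and HISAT2 named in the submitters' processing notes), grouped tag starts into clusters and deposited, for each of 10819 clusters and each library, raw tag counts and normalized TPM. TPM were used for levels and for the choice of members, and counts for tests. Columns of per-sample values that were not used numbered 0. Members and gene lists were chosen with earlier results of these data known.

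Differences were tested with edgeR 4.0.16 (TMM scaling, quasi-likelihood F-test, R 4.3.3), with all groups of 1 experiment in a fit, on clusters with any tag (10776 in experiment 1 and 10816 in experiment 2), and the FDR was adjusted by Benjamini-Hochberg over all clusters with a threshold of 0.05. Each SE was the absolute log2 fold change over the square root of the F statistic of that test. DESeq2 1.42.0, other scalings, filters and left-out libraries were alternatives. Ratios of starts used log2(TPM + 0.1). The scripts were tested on simulated counts. Of 72 pairs of libraries of 1 group, none agreed within counting noise (lowest chi-square per cluster 12.4). Named members were those with the largest ratios or levels, those on a list, those most changed in a comparison, those not called in experiment 2, those of genes with several members and those nearest the limit. The values of 1 member are not reported here, although counts over the members include it. Genes were assigned by the peak lying within 500 bp of an annotated start or inside a gene on the same strand.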

Additional observations from a re-analysis of the deposited data

Results flagged for a closer look

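In 26 of 238 sets of libraries (10.9%; a member at an annotated start in 1 group of 1 experiment, with 4 to 10 libraries), the highest or lowest library stood apart from the rest by Dixon's criterion, which chance alone meets in about 1 in 20. In the Mid of experiment 1, Mid 6 was the low library for *Pdk4* (1361 TPM), *Cebpd* (29.2), *Retreg1* (222), *Tacc2* (129.9), *Pank1* (21.3) and *Gpat3* (6.16), Mid 5 the high one for *Hmox1* (633) and *Slc30a2* (22.4), and Mid 2 for *Atf3* (8.08). In the Mid of experiment 2, Mid 9 was high for *Pde4d* (133), *Atf3* (33.9), *Tnfrsf12a* (76.4) and *Xirp1* (2618), and Mid 11 for *Zim1* (9.77). Dep 3 was high for *Cebpd* (148), *Sesn1* (76.4), *Maff* (19.4) and *Zim1* (10.1). HiT 1 was high for *Myc* (16.4) and *Acot1* (64.1), and HiT 4 low for *Tnfrsf12a* (20.3). Among the libraries with food, Fed 1 was low for *Depp1* (3.50) and *Il6ra* (14.2), Fed 3 high for *Slc30a2* (1.23) and *Pank1* (22.8), and Pre 4 high for *Slc25a34* (19.2).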

How the results depend on the processing

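For named members, 992 results kept their direction and side of the threshold under the alternatives, 24 lost the call, 9 gained one and 2 reversed. *Atf3* from the Post to Mid was -0.61 with lane as a term, and the internal cluster of *Rnf115* from the Pre to Mid was -0.17 without Mid 9 and up to 1.40 over the other left-out libraries. The cause was not tested. The members called numbered 31 to 45 from the Pre to Mid of experiment 2 when each library was left out, and 44 to 47 from the Post to Mid. From the Pre to Post of experiment 2, DESeq2 called 1 higher and 5 lower, the edgeR likelihood ratio test 4 lower, and a fit of only the groups compared, a replicate block, lane as a term and each left-out library (0 to 0) gave 0 lower. From the HiT to Mid, the higher count was 5 with only the groups compared, 7 with the replicate block and 5 to 16 over left-out libraries, and the lower count was 3 without TMM, 3 with the block and 5 to 6 over left-out libraries. From the Mid to Dep, the higher count was 4 by the likelihood ratio test, 4 by DESeq2, 0 without TMM, 0 with only the groups compared, 0 with the block, 2 with all 38 libraries and 0 to 2 over left-out libraries, and the lower count 0 to 3. From the HiT to Dep, it was 6 to 11 higher. From the Pre to Post of experiment 1, the higher count was 0 without TMM and 2 with only the groups compared, and the lower count 5 by the likelihood ratio test, 4 by DESeq2, 0 without TMM, 3 with upper-quartile scaling, 5 with only the groups compared and 0 to 1 over left-out libraries. From the Fed to Post, the higher count was 2 with only the groups compared, 2 with the block and 1 to 2 over left-out libraries, and the lower count was 2 without TMM and 3 to 5. Without TMM the median of all clusters shifted to 0.11 from the HiT to Mid and to -0.14 from the Fed to Post.

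The rule gave 105 members with a factor of 1.5, 24 with a factor of 3 and 44 to 58 over left-out libraries. Members above every fed library of experiment 2 were 45 to 46, and pairs of starts without overlap 5 to 6, an alternative added after seeing the data. No paired analysis was possible because replicate numbers mark different mice. The block values above were fitted where groups shared numbers, which the Mid of experiment 2 did not. Members near 1 TPM, with 2 Pre libraries in experiment 2, have the least precise fold changes.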
